A study of Homo sapiens with 16 samples.

Results

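RPMI8226 is a human plasma cell line established from multiple myeloma, and RPMI8226-HR is its hypoxia-resistant subline. Described here are the 4 arrays of this line among the 16 arrays of the series. They were chosen by their titles. RPMI8226-HR cells had spent 24 hours in 1% oxygen and RPMI8226 parental cells 24 hours in 20% oxygen, with 2 arrays in each group. The series holds the same pair of groups for 3 further lines, KMS-11, U266 and IM-9, which serve here as the comparison. The labels give no genotype, no statement of how resistance was selected and no word on whether the subline is 1 clone. HR cells were measured only in low oxygen and parental cells only in high oxygen, so the state of being resistant and the oxygen level at harvest cannot be told apart. Nor do the labels say whether both arrays of a group stem from 1 culture or from several, so the p-values below measure only the spread between these arrays, which may be technical.

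Cells sense oxygen through the HIF transcription factors. In normal air, prolyl hydroxylases of the EGLN family mark the HIF alpha subunits, and the VHL ubiquitin ligase then sends them to the proteasome. In low oxygen the hydroxylases slow, HIF accumulates and pairs with ARNT, and the pair switches on genes for glucose uptake, glycolysis, mitophagy, blood vessel growth and the hydroxylases themselves. Myeloma cells grow in a bone marrow niche that is low in oxygen. They are also heavy secretors of immunoglobulin, which makes them depend on the endoplasmic reticulum and the proteasome.

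The table holds log2 intensities, and of the 18417 genes that a probe set names alone, 12639 were tested, namely those above 6.27, the median of the table, on at least 2 of the 16 arrays. The median of each RPMI8226 array lay between 6.31 and 6.34. Across all probe sets the RPMI8226-HR arrays correlated with each other at r = 0.9959 and the parental arrays at r = 0.9951. The cells carried several marks of their line. MAF, the transcription factor gene that is translocated in RPMI8226, was at 10.19 and 10.20 on the RPMI8226-HR arrays and at 10.31 and 10.27 on the parental arrays, and its target CCND2, cyclin D2, averaged 12.08 in RPMI8226-HR and 12.06 in parental cells, a difference of 0.02 ± 0.07 (SE, 2 arrays each). The plasma cell factor XBP1 and the secretory cell gene MZB1 were between 10.77 and 11.18 on all 4 arrays. Not every plasma cell gene was bright. SLAMF7 was under the table median on all 4 arrays, and TNFRSF17 was only a little above it. The 24 tested plasma cell genes had a median level of 8.67 in RPMI8226-HR and 8.58 in parental cells. The B cell markers PAX5, CD79A and CD22 lay between 4.87 and 6.35, near or below the table median. Other B cell genes were bright, and the 24 tested B cell surface and receptor genes had a median level of 7.23 in RPMI8226-HR and 8.23 in parental cells. MS4A1, the B cell antigen CD20, was at 10.21 and 10.17 in RPMI8226-HR and 9.78 and 9.21 in parental cells. Of the markers of other cell types, 7 of 18 T and NK cell genes, 3 of 14 myeloid, 8 of 14 stromal and 4 of 12 erythroid genes could be tested; 0 of them rose, and 1 T and NK cell gene, 2 stromal genes and 1 erythroid gene fell. These were CD8B (−0.68), NT5E (−0.34), CXCL12 (−1.90) and HBB (−0.26, log2). NT5E and HBB were under the table median on all 4 arrays. The call of HBB was lost without parental array 1 (−0.32), parental array 2 (−0.21) or RPMI8226-HR array 1 (−0.13), and that of NT5E without parental array 1 (−0.33), parental array 2 (−0.36) or RPMI8226-HR array 2 (−0.20). CXCL12 was at 7.30 and 6.97 in RPMI8226-HR and 8.99 and 9.08 in parental cells. Their part in the results below was not tested.

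In RPMI8226-HR cells 1354 genes, or 10.7% of those tested, were higher than in parental cells and 1934, or 15.3%, were lower (limma, Benjamini-Hochberg adjusted p under 0.05, 2-sided). Together they make 26% of the genes tested. Most of these differences were small: the median rise was 0.40 and the median fall −0.38 on the log2 scale, and 1008 of the rises and 1515 of the falls were under 1.5-fold. At least 2-fold changes numbered 114 upward (0.902% of the genes tested) and 137 downward (1.08%). The median over all tested genes was −0.01, which the scaling of the deposited table may set, so a shift of all genes together cannot be seen here. RPMI8226-HR and parental arrays did not overlap for 57.7% of the genes tested. In the number of all called changes the line stood between the others, with 1223 rises and 1064 falls in U266, 1814 and 2692 in IM-9 and 308 and 737 in KMS-11. Falls of at least 2-fold were most numerous in RPMI8226, with 79 in IM-9, 57 in U266 and 6 in KMS-11. Rises of at least 2-fold numbered 174 in IM-9, 173 in U266 and 20 in KMS-11.

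**Figure D1:**
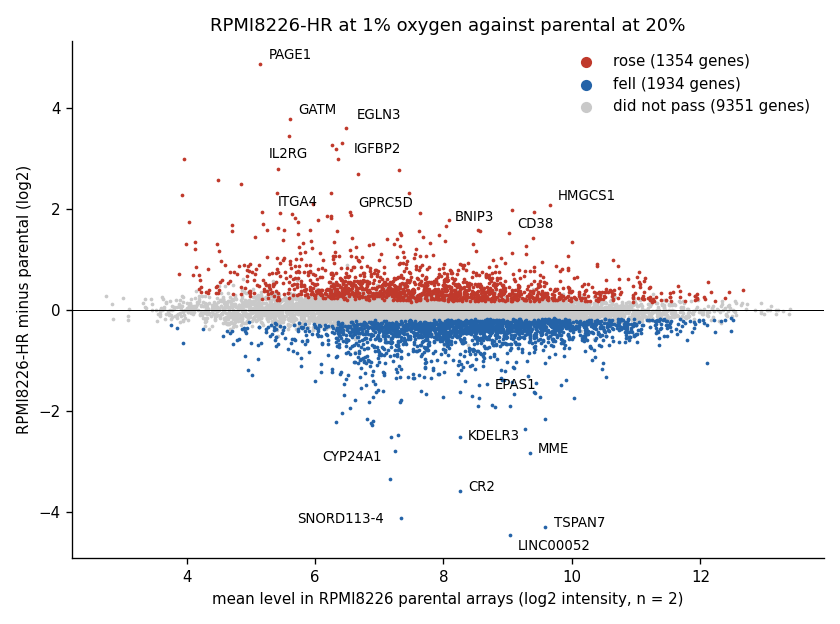
Each point is 1 of the 12639 tested genes, placed by its mean log2 intensity on the 2 RPMI8226 parental arrays (horizontal) and by the RPMI8226-HR minus parental difference in log2 units (vertical). Red genes rose (1354), blue genes fell (1934) and grey genes did not pass; the named genes span from PAGE1 at 4.87 to LINC00052 at −4.44.

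The promoters of 3 oxygen-responsive genes that rose are shown first. These genes had the largest rises among HIF targets whose promoter holds ACGTG, the core of the HIF binding site. Its presence in them was thus fixed by the choice. EGLN3, PFKFB4 and SLC2A3 rose more than BNIP3 but gave no match, for want of the letters or of a promoter to search. Shown are the windows from 250 bases before to 50 bases after the gene start in RefSeq, build GRCh38.p14, on the strand of the gene. AK4 lies at chr1:65147302-65147601 on the plus strand, BNIP3 at chr10:131981874-131982173 on the minus strand and BHLHE40 at chr3:4979187-4979486 on the plus strand. Capitals mark ACGTG on either strand, so that CACGT is its reverse and CACGTG holds both, overlapping.
AK4: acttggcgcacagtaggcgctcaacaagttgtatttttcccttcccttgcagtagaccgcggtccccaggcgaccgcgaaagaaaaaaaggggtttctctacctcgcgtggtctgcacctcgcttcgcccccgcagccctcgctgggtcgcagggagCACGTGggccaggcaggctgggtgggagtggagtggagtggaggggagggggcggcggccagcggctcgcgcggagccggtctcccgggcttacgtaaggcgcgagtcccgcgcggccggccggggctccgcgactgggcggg
BNIP3: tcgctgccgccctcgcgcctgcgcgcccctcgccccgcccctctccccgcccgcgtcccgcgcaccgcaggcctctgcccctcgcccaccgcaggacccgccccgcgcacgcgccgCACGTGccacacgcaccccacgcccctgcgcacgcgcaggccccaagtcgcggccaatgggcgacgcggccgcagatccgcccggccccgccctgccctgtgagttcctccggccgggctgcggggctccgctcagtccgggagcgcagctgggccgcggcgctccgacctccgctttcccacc
BHLHE40: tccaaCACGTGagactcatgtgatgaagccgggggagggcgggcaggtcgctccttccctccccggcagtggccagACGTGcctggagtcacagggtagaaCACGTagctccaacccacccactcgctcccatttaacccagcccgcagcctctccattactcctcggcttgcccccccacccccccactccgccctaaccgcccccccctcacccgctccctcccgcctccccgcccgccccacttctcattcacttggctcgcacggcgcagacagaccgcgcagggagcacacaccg
Searched on both strands, ACGTG was present in 18 of the 33 promoters that the table holds for tested HIF targets, in 14 of the 25 (56%) of those that rose, and in 21.6% of all 27305 promoters of the same length. A match describes the letters and not a bound site.

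Of 41 tested genes known as HIF targets, 30 were higher in RPMI8226-HR cells and 2 were lower, with a median difference of 0.78 against −0.01 over all tested genes. The transcript of the sensor itself led them. EGLN3, the prolyl hydroxylase that marks HIF for destruction and is itself induced by HIF, was at 9.95 and 10.25 on the RPMI8226-HR arrays and at 6.42 and 6.55 on the parental arrays, so parental cells were barely above the table median. Its relative EGLN1 was at 8.54 and 8.58 in RPMI8226-HR and 7.77 and 7.72 in parental cells, a rise of 0.81 ± 0.08 (SE, limma adjusted p = 6.21e-06). VHL, the ligase subunit that recognises marked HIF, was 0.26 ± 0.06 higher (adjusted p = 0.00883, limma), but its adjusted p was 0.0584 without parental array 1 and 0.0651 without RPMI8226-HR array 1. ELOC, elongin C of the same ligase, was 0.37 ± 0.07 lower in RPMI8226-HR (−0.37, adjusted p = 0.00228, limma). VHL lies on chromosome 3 in the stretch from CNTN6 to LRIG1, where 126 of 300 genes rose. ELOC lies on chromosome 8 between LSM1 and PHF20L1, where 106 of 225 genes fell. Whether either gene changed apart from its neighbours was not tested.

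The subunits of HIF did not rise at the transcript level. HIF1A was at 8.95 and 9.11 in RPMI8226-HR and at 8.90 and 9.14 in parental cells, ranges that overlap, with a difference of 0.01 ± 0.09 (adjusted p = 0.961, limma). Its sign turned without parental array 1 (−0.11) and without RPMI8226-HR array 2 (−0.07). ARNT, the shared beta subunit, differed by 0.10 ± 0.07 (adjusted p = 0.366, limma). EPAS1, which encodes HIF-2 alpha, was lower in RPMI8226-HR, at 7.27 and 7.14, against 8.61 and 8.73 in parental cells. This difference of −1.47 ± 0.11 passed the test (adjusted p = 6.21e-07, limma), and it lay 1.58 below the mean difference of the other 3 lines (−1.58, log2). In RNA of whole cultures, fewer cells with a transcript and less of it per cell cannot be told apart.

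Targets that act on energy use and on mitochondria rose with EGLN3. AK4, an adenylate kinase of the mitochondrial matrix, was at 9.74 and 9.84 in RPMI8226-HR and 7.39 and 7.54 in parental cells (difference 2.32 ± 0.11, adjusted p = 1.61e-08 in limma). BNIP3, which marks mitochondria for mitophagy, was at 9.70 and 9.72 in RPMI8226-HR and 8.02 and 8.07 in parental cells (1.67 ± 0.07, adjusted p = 1.59e-09). The arrays of the groups stood well apart for both genes. BNIP3L, its relative, rose by 0.85, and NDRG1, a stress gene named for its place downstream of N-myc, by 1.26. Targets that act in transcription also rose: BHLHE40, a circadian and differentiation repressor, by 1.49, its relative BHLHE41 by 0.49, and the nuclear receptor RORA by 1.40. DDIT4, which restrains mTORC1, was at 8.35 and 8.72 in RPMI8226-HR and 7.20 and 7.27 in parental cells, and the histone demethylases KDM3A and KDM4B were 0.86 and 0.52 higher (log2 each). The secreted factors VEGFA, which drives vessel growth, and ADM, adrenomedullin, rose by 0.75 and 0.86. The 2 members that fell were AK3, another mitochondrial adenylate kinase (−0.47), and CITED2, which competes with HIF for its coactivators (−0.22, adjusted p = 0.0497, limma). CITED2 is named because the count is small and was picked after its value was seen. Of the HIF targets 1 fell without parental array 1, without parental array 2 or without RPMI8226-HR array 1.

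Set against the mean difference of KMS-11, U266 and IM-9, the HIF targets of RPMI8226 were not uniformly stronger or weaker: 9 of the 41 were higher and 16 lower. Over all genes 12.6% were higher than in the other lines and 14.2% lower by this test. EGLN3 exceeded the mean of the other lines by 1.88, SLC2A3 by 1.43, RORA by 1.40 and PFKFB4 by 1.06. NDRG1 fell short of that mean by 1.05 (−1.05), HK2 by 0.58 (−0.58) and BNIP3L by 0.47 (−0.47). AK4 and BNIP3 differed from it by −0.05 and −0.11 and passed no test of that difference.

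**Figure D2:**
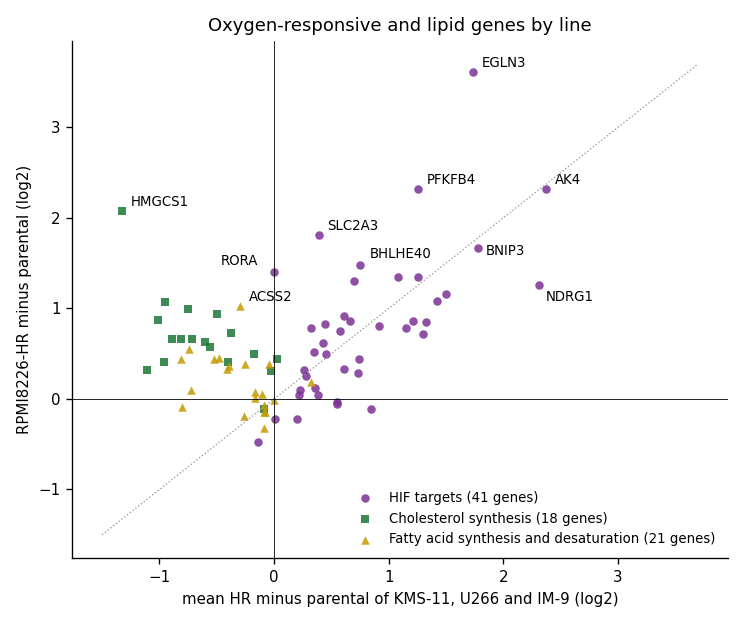
Each point is a gene, placed by the mean HR minus parental difference of KMS-11, U266 and IM-9 (horizontal, log2) and by the same difference in RPMI8226 (vertical, log2); the dotted line marks equality. HIF targets (41 genes, circles) lie mostly right of 0 and above it, cholesterol synthesis genes (18, squares) lie left of 0 or near it and, but for LBR, above it, with HMGCS1 at 2.07 in RPMI8226, and fatty acid synthesis genes (21, triangles) lie on both sides of 0.

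Most of the larger glycolysis rises were in glucose transporters and regulatory enzymes. Of 26 tested glucose transporter and glycolytic genes 9 rose and 2 fell (1 without parental array 2 or without RPMI8226-HR array 2), with a median of 0.10. Of the 26, 34.6% rose and 7.69% fell, against 10.7% and 15.3% of all genes. The glucose transporter SLC2A3 was at 7.90 and 8.22 in RPMI8226-HR and at 6.34 and 6.14 in parental cells, and SLC2A1 at 11.35 and 11.36 in RPMI8226-HR and 9.96 and 10.04 in parental cells. Differences were 1.82 ± 0.11 and 1.35 ± 0.12, both past the test. The bifunctional regulators of phosphofructokinase rose as well, PFKFB4 by 2.32 ± 0.09 from near the table median in parental cells and PFKFB3 by 1.08 ± 0.07. HK2, the hexokinase that commits glucose to the cell, was 0.72 ± 0.12 higher and ALDOC, an aldolase, 1.00 ± 0.12 higher. Further down, PGK1, phosphoglycerate kinase, was 0.26 ± 0.06 higher, while GAPDH (−0.02), ENO1 (−0.07) and PKM (0.18) did not pass.

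Glycogen and pyruvate handling changed in single enzymes. Of 11 glycogen genes 4 rose (36.4%, against 10.7% of all genes). PGM1, which links glucose phosphates to glycogen, rose by 0.75, the branching enzyme GBE1 by 0.71, the liver-type phosphorylase PYGL by 0.70 and the lysosomal glucosidase GAA by 0.69. GYG1, the primer of glycogen, was the 1 that fell (−0.28), a call lost without RPMI8226-HR array 2 (−0.23, adjusted p = 0.0608 in limma), and without parental array 2 the glycogen falls numbered 2. At the gate between pyruvate and the mitochondrion, 4 of 13 genes rose (30.8%, against 10.7% of all genes) and 2 fell (15.4%, against 15.3%). The kinases that close the pyruvate dehydrogenase complex split: PDK1 was at 10.55 and 10.64 in RPMI8226-HR and 9.76 and 9.87 in parental cells, and PDK3 rose by 0.55, whereas PDK2 fell (−0.44), as did the opposing phosphatase PDP1 (−0.32). PDHB, a subunit of the complex, rose by 0.55, 0.64 above the mean of the other lines.

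Falls among genes of mitochondrial oxidation were small. Of 50 nuclear-encoded respiratory chain subunits 0 rose and 11 fell (22%, against 15.3% of all genes), with a median of −0.11, and 1 rose and 7 fell without parental array 2. The falls were spread over complexes, among them NDUFC1 (−0.58) and NDUFB5 (−0.52) of complex I, SDHA (−0.36) and SDHD (−0.40) of complex II, and ATP5F1A (−0.42) of the ATP synthase. In the tricarboxylic acid cycle and its shuttles 11 of 27 genes fell (40.7%, against 15.3% of all genes) and 3 rose (11.1%, against 10.7%). The falls included SUCLA2 (−0.64), a subunit of succinyl-CoA synthetase, and the subunits IDH3A (−0.52) and IDH3B (−0.51) of the mitochondrial NAD-dependent isocitrate dehydrogenase. The cytosolic counterparts went the other way: IDH1, which makes NADPH, was at 10.11 and 10.13 in RPMI8226-HR and 9.34 and 9.36 in parental cells, and ACO1, a cytosolic aconitase and iron sensor, rose by 0.51. IDH1 stood 1.33 above the mean of the other lines. SUCLA2 lies on chromosome 13 and IDH3B on chromosome 20, and NDUFB5 lies on chromosome 3 between IQCB1 and LMLN. In these stretches 126 of 215, 154 of 356 and 144 of 275 genes fell. Outside chromosomes 3, 8, 13 and 20, 9 of 24 cycle genes and 8 of 43 respiratory chain genes fell. The share of all genes there was 12.1%.

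Cholesterol is built from acetyl-CoA through mevalonate. The transcription factor SREBP-2 raises the genes of this route when membrane sterols are low, and INSIG proteins hold SREBP back when sterols are ample. In RPMI8226-HR cells 17 of 18 tested genes of cholesterol synthesis rose and 0 fell, with a median of 0.65. HMGCS1, the HMG-CoA synthase at the start of the route, was at 11.64 and 11.81 on the RPMI8226-HR arrays and at 9.72 and 9.59 on the parental arrays, a rise of 2.07 ± 0.08 (adjusted p = 9.57e-10, limma). LSS, which closes the sterol rings, was at 10.83 and 11.20 in RPMI8226-HR and 9.95 and 9.94 in parental cells. The arrays did not overlap for either gene. Later steps moved in the same direction: MSMO1 by 0.99, SC5D by 0.94, CYP51A1 by 0.87 and MVD, of the mevalonate part, by 0.72. LBR, a sterol reductase that also anchors chromatin at the nuclear envelope, was the 1 member that did not pass (−0.11).

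In the mean difference of KMS-11, U266 and IM-9 these genes went the opposite way, with a median of −0.66. Which of these lines carried it was not examined for this list. All 17 that rose in RPMI8226 stood above that mean by the test of the difference. HMGCS1 exceeded it by 3.40, LSS by 2.03 and CYP51A1 by 1.89. Genes that sense and move sterols were mixed, with 6 of 15 risen and 1 fallen (2 without RPMI8226-HR array 1). Of these 15, 40% rose and 6.67% fell, against 10.7% and 15.3% of all genes. INSIG1 was at 11.21 and 11.39 in RPMI8226-HR and 10.42 and 10.36 in parental cells, MYLIP, a ligase that degrades the LDL receptor, at 9.78 and 9.96 in RPMI8226-HR and 8.02 and 8.16 in parental cells. STARD4, a sterol carrier, rose by 1.06 and the lysosomal exporter NPC1 by 0.43, while LPCAT3, which remodels phospholipids, fell (−0.51). The regulators SREBF1 (−0.18), SREBF2 (0.10) and SCAP (0.20) did not pass. The sterol response element TCACNCCAC, searched on both strands, was in 0 of the 15 promoter windows of the risen genes and in 1.15% of all windows, which says only that those letters are not in these stretches.

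Fatty acid synthesis rose with it in part. Of 21 genes 9 rose (42.9%, against 10.7% of all genes) and 1 fell (4.76%, against 15.3%). ACSS2, which makes acetyl-CoA from acetate, rose by 1.02, the desaturases SCD and FADS1 by 0.56 and 0.45, and the synthase FASN by 0.44. Without RPMI8226-HR array 2 the counts were 6 risen and 0 fallen, and without parental array 2 also 0 fell. FASN was at 10.17 and 10.42 in RPMI8226-HR and 9.88 and 9.83 in parental cells, and its difference was 1.25 above the mean of the other lines. ACACA, the carboxylase that commits acetyl-CoA to fatty acids, did not pass (0.10). Genes of fatty acid oxidation and lipid storage fell in 7 of 23 cases (30.4%, against 15.3% of all genes) and rose in 1 (4.35%, against 10.7%). ECI2, a peroxisomal and mitochondrial enoyl-CoA isomerase, was at 5.45 and 5.48 in RPMI8226-HR, below the table median, and at 6.97 and 7.14 in parental cells. SLC25A20, which carries acylcarnitines into mitochondria, was lower by 0.57 (−0.57), and PLIN3, a lipid droplet coat gene, by 0.55 (−0.55).

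Among genes of amino acid supply, all enzymes of the route to serine rose. Of 32 genes of the ATF4 and amino acid starvation response 12 rose and 3 fell (1 fell without parental array 2, and 1 without RPMI8226-HR array 1), while ATF4 itself did not pass (0.09). Of these 32, 37.5% rose and 9.38% fell, against 10.7% and 15.3% of all genes. PHGDH, which starts serine synthesis, was at 7.79 and 8.22 in RPMI8226-HR and 6.58 and 6.57 in parental cells. PSAT1 and PSPH, which complete the route, rose by 0.91 and 0.50, and all 3 exceeded the mean of the other lines. ALDH1L2, the mitochondrial formyltetrahydrofolate dehydrogenase, rose by 1.13, while GLDC, which cleaves glycine, fell (−0.90). Other stress targets of ATF4 such as DDIT3 (0.04), TRIB3 (0.05) and ATF3 (−0.21) did not pass. The cystine carrier SLC7A11 rose by 0.88. Among all 25 amino acid transporters, however, 3 rose (12%, against 10.7% of all genes) and 6 fell (24%, against 15.3%). The falls included SLC6A15 (−0.93), SLC43A2 (−0.67) and the taurine carrier SLC6A6 (−0.58).

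Creatine metabolism held the second largest rise of the line. GATM, which makes the creatine precursor, was at 9.41 and 9.39 in RPMI8226-HR and at 5.61 and 5.62, below the table median, in parental cells. The other creatine genes did not follow it: CKB, the brain-type creatine kinase, was at 7.51 and 7.57 in RPMI8226-HR and 8.80 and 9.02 in parental cells, a difference of −1.37 ± 0.13, and GAMT (0.04), which completes creatine, and the creatine carrier SLC6A8 (−0.14) did not pass. Of the 17 genes of creatine, arginine and polyamines 1 rose (5.88%, against 10.7% of all genes) and 5 fell (29.4%, against 15.3%). The falls numbered 3 without parental array 2 and 2 without RPMI8226-HR array 1.

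**Figure D3:**
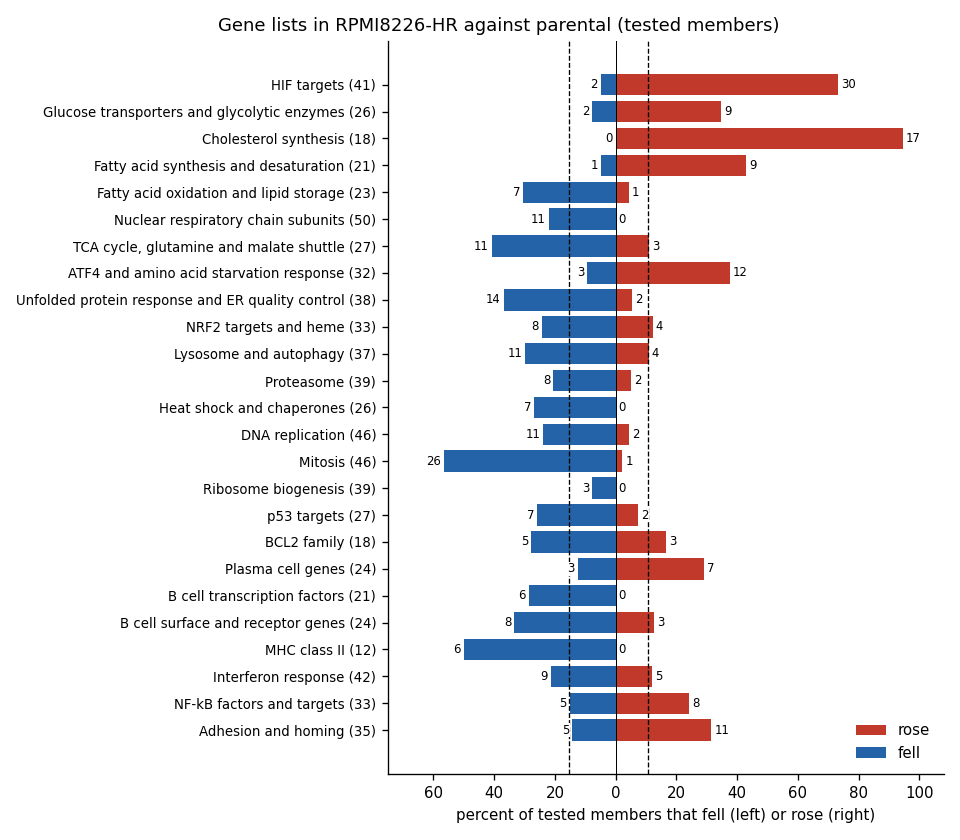
Bars give the percentage of tested members of 25 gene lists that rose (red, right) or fell (blue, left) in RPMI8226-HR against parental cells; numbers at the bars are gene counts, numbers after the names are tested members, and dashed lines mark the share over all tested genes (10.7% risen, 15.3% fallen). Cholesterol synthesis (17 of 18 risen) and HIF targets (30 of 41) reach farthest right, and mitosis (26 of 46 fallen) and MHC class II (6 of 12) farthest left.

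Protein quality control in the endoplasmic reticulum, on which antibody-secreting cells lean, was lower in part. Of 38 genes 14 fell (36.8%, against 15.3% of all genes) and 2 rose (5.26%, against 10.7%). The falls numbered 9 without parental array 2 and 9 without RPMI8226-HR array 1, and the rises 1 without RPMI8226-HR array 2. The largest was KDELR3, a receptor that returns escaped residents to the endoplasmic reticulum, at 5.68 and 5.82 in RPMI8226-HR and 8.20 and 8.31 in parental cells. SEC61A1, the translocation channel, was lower by 0.63 (−0.63), and the cochaperones DNAJC3 (−0.54) and DNAJB11 (−0.47) fell too. SEC61A1 and DNAJB11 lie on chromosome 3 between IQCB1 and LMLN, where 144 of 275 genes fell. DNAJC3 lies on chromosome 13, where 126 of 215 genes fell. EDEM1, which routes misfolded glycoproteins to degradation, rose by 0.70. It lies on chromosome 3 between CNTN6 and LRIG1, where 126 of 300 genes rose. XBP1 (−0.04) and DDIT3 (0.04), read-outs of the unfolded protein response, did not pass. Of 39 proteasome genes 8 fell (20.5%, against 15.3% of all genes) and 2 rose, with 4 falls and 0 rises without parental array 2 and 1 rise with either 1 of the RPMI8226-HR arrays left out, PSMB5, the catalytic subunit bound by bortezomib, being lower by 0.33 (−0.33). Heat shock genes fell in 7 of 26 cases (26.9%, against 15.3% of all genes) and rose in 0, led by HSPA4L (−0.84) and HSPH1 (−0.50). With parental array 2 or RPMI8226-HR array 1 left out, 4 heat shock genes fell. Outside chromosomes 3, 8, 13 and 20, 8 of 30 endoplasmic reticulum genes fell and 1 rose, against 12.1% and 10.5% of all genes there. Of the heat shock genes 5 of 24 fell there, while HSPH1 lies on chromosome 13. Whether the named genes of these chromosomes changed apart from their neighbours was not tested.

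Iron and redox genes were split. HMOX1, which breaks down heme, was at 10.27 and 9.99 in RPMI8226-HR and 8.55 and 8.58 in parental cells, a rise of 1.57 ± 0.13, and TFRC, the transferrin receptor, was at 9.30 and 9.30 in RPMI8226-HR and 10.52 and 10.42 in parental cells (−1.17 ± 0.06, adjusted p = 1.41e-08 in limma). Other NRF2 targets did not follow HMOX1: SRXN1 fell (−0.74), and NQO1 (−0.10), GCLM (−0.15) and TXNRD1 (−0.08) did not pass. In the list of NRF2 targets and heme genes 12.1% rose and 24.2% fell, against 10.7% and 15.3% of all genes. Over the 33 genes of that list 4 rose and 8 fell, with 2 rises and 3 falls without parental array 2, 5 falls without RPMI8226-HR array 1 and 2 rises without RPMI8226-HR array 2. Of 37 lysosome and autophagy genes 4 rose (10.8%, against 10.7% of all genes) and 11 fell (29.7%, against 15.3%). The falls numbered 6 without parental array 2, 6 without RPMI8226-HR array 1 and 6 outside chromosomes 3, 8, 13 and 20. CTSB, the protease cathepsin B, was at 6.78 and 6.50 in RPMI8226-HR and 8.47 and 8.05 in parental cells. Its difference from the mean of the other lines was −2.28. LAMP1, of the lysosomal membrane, fell (−0.69), while LGMN, the protease legumain, rose by 0.47, which was 1.46 below the mean of the other lines (−1.46).

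Many mitosis genes were lower by small amounts. Of 46, 26 fell and 1 rose, with a median of −0.27. UBE2C, which drives exit from mitosis, was at 6.41 and 6.39 in RPMI8226-HR and 7.41 and 7.27 in parental cells, and AURKA, a spindle kinase, at 8.51 and 8.80 in RPMI8226-HR and 9.35 and 9.50 in parental cells. Without parental array 2 the falls numbered 11, and without RPMI8226-HR array 1 they also numbered 11. FOXM1 (−0.05), CDK1 (−0.03) and BIRC5 (0.10), central to the same program, did not pass. UBE2C and AURKA lie on chromosome 20, where 154 of 356 genes fell and 7 rose. Outside chromosomes 3, 8, 13 and 20, 20 of 39 mitosis genes fell, against 12.1% of all genes there. DNA replication genes fell in 11 of 46 cases and rose in 2, with 1 rise without parental array 1 or without RPMI8226-HR array 1 and 4 without RPMI8226-HR array 2. The 1 mitosis rise became 0 with either 1 of the RPMI8226-HR arrays left out. MCM2 (−0.64), of the replicative helicase, and CDC6 (−0.61), which loads it, led the falls, and TYMS, thymidylate synthase, rose by 0.62. Of these 11 falls 7 were genes of chromosomes 3, 8, 13 and 20, and elsewhere 4 of 37 fell, no larger a share than the 12.1% of all genes there. Cyclins and their kinases rose in 0 of 22 cases (1 without RPMI8226-HR array 1) and fell in 6, including RB1 (−0.59), CCND3 (−0.41) and the inhibitor CDKN1A (−0.52), whose call was lost without parental array 2 (−0.28) and without RPMI8226-HR array 1 (−0.40). Ribosome biogenesis genes fell in 3 of 39 cases (7.69%, under the 15.3% of all genes) and rose in 0, or in 3 without RPMI8226-HR array 2. MYC was at 11.41 and 11.51 in RPMI8226-HR and 11.58 and 11.60 in parental cells, a difference that did not pass (adjusted p = 0.12, limma). MYCN, its relative, was lower (−1.33), at 5.92 and 5.94 in RPMI8226-HR and 7.34 and 7.19 in parental cells.

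Single survival genes shifted in both directions. Of the tested BCL2 family genes 16.7% rose and 27.8% fell, against 10.7% and 15.3% of all genes. Among 18 of the BCL2 family, MCL1, on which myeloma cells depend, rose by 0.38 ± 0.06 and BCL2L1, which encodes BCL-XL, fell (−0.70 ± 0.07); BCL2 (0.14), BAX (0.03) and BCL2L11 (−0.19) did not pass. BID, an activator of BAX, was also lower (−0.40). In all 3 rose and 5 fell, or 3 fell without parental array 2 or without RPMI8226-HR array 2. Targets of p53 fell in 7 of 27 cases (25.9%, against 15.3% of all genes) and rose in 2 (7.41%, against 10.7%). Outside chromosomes 3, 8, 13 and 20 the falls were 5 of 22, against 12.1% of all genes there. ZMAT3 on chromosome 3 and RRM2B on chromosome 8 lie in stretches where many genes fell. These were 144 of 275 from IQCB1 to LMLN and 106 of 225 from LSM1 to PHF20L1. ZMAT3 (−0.66) and RRM2B (−0.61) led the falls, and MDM2 (−0.48) and CDKN1A (−0.52) were lower too, but without parental array 2 neither passed, with MDM2 at −0.34 and CDKN1A at −0.28, and without RPMI8226-HR array 1 neither passed either, at −0.35 and −0.40. The 7 falls numbered 4 without RPMI8226-HR array 1, and the 2 rises 1 without parental array 1, parental array 2 or RPMI8226-HR array 2. RIPK3, a kinase of necroptosis, fell (−0.71). Of 25 tested genes of caspases, death receptors and their inhibitors 2 rose and 2 fell, 8% each way, under the shares of all genes.

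**Figure D4:**
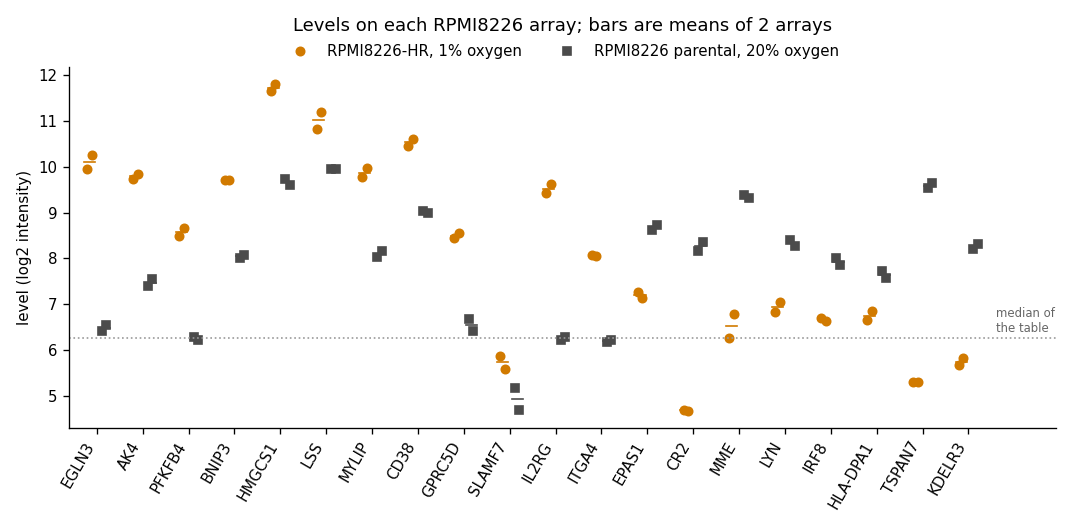
Each symbol is the log2 intensity of a gene on 1 array, circles for the 2 RPMI8226-HR arrays and squares to their right for the 2 parental arrays, with bars at the means and a dotted line at the table median of 6.27. The groups are apart for all 20 genes drawn; GPRC5D, IL2RG and ITGA4 stand above the line more clearly in RPMI8226-HR, and CR2, TSPAN7 and KDELR3 stand above it only in parental cells.

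Plasma cells are defined by IRF4, PRDM1 and XBP1 and lose the surface proteins of earlier B cells. Plasma cell genes rose in 7 of 24 cases and fell in 3 (1 without parental array 2). Of the 24, 29.2% rose and 12.5% fell, against 10.7% and 15.3% of all genes. The larger rises were in surface genes. CD38, an enzyme and antibody target on plasma cells, was at 10.46 and 10.61 in RPMI8226-HR and 9.04 and 8.99 in parental cells. GPRC5D, an orphan receptor that is also a therapy target, was at 8.43 and 8.55 in RPMI8226-HR and 6.69 and 6.41 in parental cells (1.95 ± 0.13, adjusted p = 3.85e-07 in limma). SLAMF7, another therapy target, rose by 0.79 but was under the table median on all 4 arrays, at 5.86 and 5.59 in RPMI8226-HR and 5.17 and 4.69 in parental cells. TNFRSF17, the target BCMA, was lower, at 6.69 and 6.54 in RPMI8226-HR and 6.96 and 7.30 in parental cells (−0.51 ± 0.10, adjusted p = 0.00247 in limma). All 4 differed from the mean of the other lines, CD38 by 1.61, GPRC5D by 1.39 and SLAMF7 by 1.23 upward and TNFRSF17 by −0.54. IRF4 rose by 0.36 and the elongation factor ELL2 by 0.92, whereas PRDM1 (−0.19), XBP1 (−0.04) and SDC1, the surface marker CD138 (−0.0019), did not pass.

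Several genes of earlier B cells fell. Of 24 surface and receptor genes 8 fell (33.3%) and 3 rose (12.5%), and of 21 transcription factors 6 fell (28.6%) and 0 rose. Over all genes 15.3% fell and 10.7% rose. CR2, the complement receptor CD21, was at 4.70 and 4.66 in RPMI8226-HR and 8.17 and 8.36 in parental cells. MME, the endopeptidase CD10, was at 6.25 and 6.79 in RPMI8226-HR and 9.38 and 9.31 in parental cells. In RPMI8226-HR, CR2 was under the table median on both arrays and MME on 1 of them. The kinase LYN (−1.41), the IgE receptor FCER2, also called CD23 (−1.31), and FCRLA (−0.94) fell as well, and MS4A1 rose by 0.69. IRF8, a factor of germinal centre and myeloid cells, was at 6.70 and 6.63 in RPMI8226-HR and 8.01 and 7.85 in parental cells (−1.26 ± 0.12). IKZF1, Ikaros, fell (−0.48), while BCL6 (−0.07), SPIB (−0.02) and POU2AF1 (−0.08) did not pass. Without RPMI8226-HR array 1, and also without parental array 1, 3 of the transcription factors fell, and 1 rose without parental array 1. Without the genes of chromosomes 3, 8, 13 and 20, 5 of the surface genes fell.

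Antigen presentation genes of class II fell in part. Of 12 MHC class II genes 6 fell (50%, against 15.3% of all genes) and 0 rose. HLA-DPA1 was at 6.66 and 6.84 in RPMI8226-HR and 7.72 and 7.58 in parental cells. HLA-DPB1 fell (−0.82), and so did HLA-DMA (−0.83), which loads peptide. CIITA, the master activator of the class, did not pass (0.04), and without parental array 2 the falls numbered 3. HLA genes are closely related, so their probe sets may pick up signal of one another. Of 18 class I genes 3 rose (16.7%, against 10.7% of all genes) and 1 fell (5.56%, against 15.3%), shares too near the background to be read as a change of the class. The 1 fall became 0 without parental array 1, without RPMI8226-HR array 1 or without RPMI8226-HR array 2. Among single genes, ERAP1, which trims peptides, rose by 0.73, and MICA and MICB, ligands of an activating receptor on NK cells, rose by 0.55 and 0.33.

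Interferon-stimulated genes rose about as often as other genes. Of 42, 5 rose (11.9%, against 10.7% of all genes) and 9 fell (21.4%, against 15.3%), and outside chromosomes 3, 8, 13 and 20 the falls were 6 of 37. SAMD9L, an antiviral and growth-restraining gene, was at 8.50 and 8.56 in RPMI8226-HR and 6.85 and 7.39 in parental cells, and IFIT1, which binds foreign RNA, rose by 0.76. MX1, a dynamin-like antiviral GTPase, was at 6.14 and 5.98 in RPMI8226-HR and 7.28 and 7.28 in parental cells, and MX2 fell too (−0.93), as did PARP14 (−0.89). ISG15 (0.16), IRF7 (0.02) and OAS1 (−0.17) did not pass. Without parental array 2 the falls numbered 5. Among 33 NF-kB genes 8 rose (24.2%, against 10.7% of all genes) and 5 fell (15.2%, against 15.3%). TNFAIP3, a feedback inhibitor of the pathway, rose by 1.01, the adhesion ligand ICAM1 by 0.82 and the cytokine IL10 by 1.01. NFKBIA (−0.04) and RELB (0.23) did not pass. The NF-kB falls numbered 3 without parental array 1 or without RPMI8226-HR array 1.

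Of the cytokine receptors, 2 of the gamma chain family were among the larger rises. IL2RG, the shared gamma chain, was at 9.43 and 9.62 in RPMI8226-HR and 6.23 and 6.29 in parental cells, and IL21R, which pairs with it, at 7.57 and 7.45 in RPMI8226-HR and 5.91 and 5.93 in parental cells. Both were under or near the table median in parental cells. IL2RB, another partner of the gamma chain, fell (−0.59). It was singled out after its value was seen. Downstream of such receptors, STAT5A was at 5.86 and 5.73 in RPMI8226-HR and 6.96 and 7.19 in parental cells, and STAT5B fell (−0.79). IL6ST, the signalling chain of the IL-6 receptor, did not pass (0.09), and neither did STAT3 (−0.26) or SOCS3 (0.07). Among the tested genes of cytokine signalling 18.4% rose and 18.4% fell, against 10.7% and 15.3% of all genes. Over the 38 genes of cytokine signalling 7 rose and 7 fell, and 4 rose without RPMI8226-HR array 1.

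Adhesion and homing genes rose in 11 of 35 cases and fell in 5, or rose in 7 without RPMI8226-HR array 2. Of the 35, 31.4% rose and 14.3% fell, against 10.7% and 15.3% of all genes. ITGA4, the alpha 4 integrin that binds VCAM1 and fibronectin in bone marrow, was at 8.08 and 8.06 in RPMI8226-HR and 6.17 and 6.22 in parental cells. CCR2, a chemokine receptor, rose by 1.57 and the hyaluronan receptor CD44 by 0.80. FN1, fibronectin, was among the brightest genes at 13.07 and 13.04 in RPMI8226-HR and 12.67 and 12.65 in parental cells. NCAM1, the antigen CD56 of many myelomas, was at 8.32 and 8.36 in RPMI8226-HR and 9.83 and 9.82 in parental cells (−1.49 ± 0.11), and CDH1, E-cadherin, fell (−0.88). ITGB7, the partner of ITGA4 and a MAF target, was bright and did not pass (0.18). Another MAF target, DEPTOR, an inhibitor of mTOR, fell (−1.32). Tetraspanins fell in 8 of 20 cases (40%, against 15.3% of all genes) and rose in 5 (25%, against 10.7%). TSPAN7 (−4.28) and TSPAN5 (1.38) were at the ends. The tetraspanin rises numbered 3 without parental array 2 or without RPMI8226-HR array 1.

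Secreted factors and modifiers of collagen included some of the larger rises. IGFBP2, which binds insulin-like growth factors, was at 9.43 and 10.03 in RPMI8226-HR and 6.52 and 6.32 in parental cells, while IGFBP3 was at 9.64 and 9.24 in RPMI8226-HR and 10.61 and 10.37 in parental cells. The growth factor HGF rose by 0.85 and PDGFA fell (−0.90). P3H2, a prolyl 3-hydroxylase of collagens, was at 9.53 and 9.20 in RPMI8226-HR and 6.74 and 6.62 in parental cells, P4HA1, the catalytic subunit of the 4-hydroxylase, rose by 1.16 and the lysyl hydroxylase PLOD1 by 0.95. P4HA2 (−0.05) and PLOD2 (0.12), which are also known to respond to HIF, did not pass. Of 31 tested MAPK feedback and immediate early genes 3 rose (9.68%) and 4 fell (12.9%), under the 10.7% and 15.3% of all genes. Among single feedback inhibitors of growth factor signalling, ERRFI1 (−2.50) and DUSP5 (−0.75) were lower and DUSP6 was 0.75 higher. CYP24A1, which inactivates vitamin D, was at 4.48 and 4.44 in RPMI8226-HR and 7.13 and 7.37 in parental cells. The vitamin D receptor VDR did not pass (0.03).

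Among the 18 largest rises outside these lists were immune genes. CD48, an adhesion protein of lymphocytes, was at 9.43 and 9.62 in RPMI8226-HR and 6.36 and 6.29 in parental cells, and PTPN22, a phosphatase that dampens antigen receptor signals, at 6.96 and 6.93 in RPMI8226-HR and 4.05 and 3.87 in parental cells. RNASE6, an antimicrobial ribonuclease, rose by 2.99, TFEC, a transcription factor related to MITF, by 2.80, CHI3L1, a secreted chitinase-like glycoprotein, by 2.78 and RGS1, which restrains chemokine receptors, by 2.50. DNAH11, a dynein of motile cilia, rose by 2.57, ELAPOR2 by 2.32 and SLCO4C1, an organic anion transporter, by 2.27. Of all genes with a rise of 2-fold or more, 37 were above the table median on both RPMI8226-HR arrays and under it on both parental arrays, PTPN22, TFEC and DNAH11 among them. Such a gene has no well measured parental level, and its fold depends on the brightness of the background.

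The falls had the reverse pattern in 62 genes, which were above the table median in parental cells alone. LINC00052, a long noncoding RNA, was at 4.76 and 4.42 in RPMI8226-HR and 8.99 and 9.08 in parental cells. SEPTIN10, a cytoskeletal GTPase, was at 4.99 and 4.66 in RPMI8226-HR and 7.50 and 7.09 in parental cells (−2.47). PCTP, a phosphatidylcholine carrier (−2.28), MANSC1 (−2.23), DIAPH2, a formin (−2.21), DOCK5, an exchange factor for Rac (−2.19), PLEKHG1 (−2.16) and SLC4A10, a bicarbonate carrier (−2.03), fell with it. CRIP2, a LIM domain gene (−2.36), and SRPX (−2.16) also fell but stayed above the median in RPMI8226-HR, CRIP2 at 6.86 and 6.97, against 9.23 and 9.31 in parental cells.

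Some large falls lay in the imprinted gene cluster of chromosome 14 that expresses noncoding RNAs from the maternal copy. SNORD113-4, a small nucleolar RNA of that cluster, was at 3.06 and 3.38 in RPMI8226-HR and 7.26 and 7.41 in parental cells, and SNORD114-3 at 3.60 and 4.04 in RPMI8226-HR and 6.92 and 7.40 in parental cells. MEG3, the long noncoding RNA of the same cluster, was at 5.39 and 5.67 in RPMI8226-HR and 6.90 and 6.65 in parental cells (−1.25 ± 0.18, adjusted p = 0.000193 in limma). DLK1, the paternally expressed neighbour, did not pass (0.20, adjusted p = 0.133, limma). The RPMI8226-HR arrays were under the table median for all 3 noncoding RNAs.

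Cancer-testis genes, normally silent outside the germ line, changed at single loci. PAGE1 was at 9.97 and 10.06 in RPMI8226-HR and 5.07 and 5.22 in parental cells. ACTL8, an actin-like gene of testis, was at 10.12 and 10.14 in RPMI8226-HR and 8.49 and 8.59 in parental cells. Of 22 tested genes of these families 3 rose and 0 fell, the third being SSX1 (0.85), which was under the table median and passed in no fit that left out 1 of the 4 arrays (adjusted p from 0.0751 to 0.0953, limma). Of 12 MAGE genes 0 rose and 1 fell, MAGEF1 (−0.39), or 2 without RPMI8226-HR array 2. Of the other cancer-testis genes 1 fell without parental array 1. The 3 rises among the 22 genes were 13.6%, against 10.7% of all genes, and the MAGE fall was 8.33%, against 15.3%. PAGE and SSX genes have near-identical copies, so a probe set may hold signal of several.

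Changes also ran along chromosomes. On chromosome 3 the rises and falls were in different stretches. Over the first 300 tested genes, from CNTN6 to LRIG1, 126 rose and 13 fell with a median of 0.19. Over 275 genes from IQCB1 to LMLN, 21 rose and 144 fell with a median of −0.24, and of the 100 between them 21 rose and 16 fell. The mean difference of the other 3 lines had medians of −0.04 and −0.02 over these stretches of 300 and 275 genes. A run of 25 consecutive genes there, from CNBP to RYK, had the lowest median of all runs, −0.55, against a middle 90% of −0.22 to 0.11 over 12063 runs of the genome. The highest run was on chromosome 18, from TYMSOS to PIEZO2, at 0.37; of 25 genes from ROCK1P1 to VAPA on that chromosome 14 rose and 2 fell. On chromosome 8 the falls were densest between LSM1 and PHF20L1, with 106 of 225, against 25 of 125 before and 25 of 97 after that stretch. On chromosome 13, 126 of 215 genes fell and 5 rose. The bounds of these stretches were placed after the values were seen, so no test is given. The number of gene copies was not measured here.

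**Figure D5:**
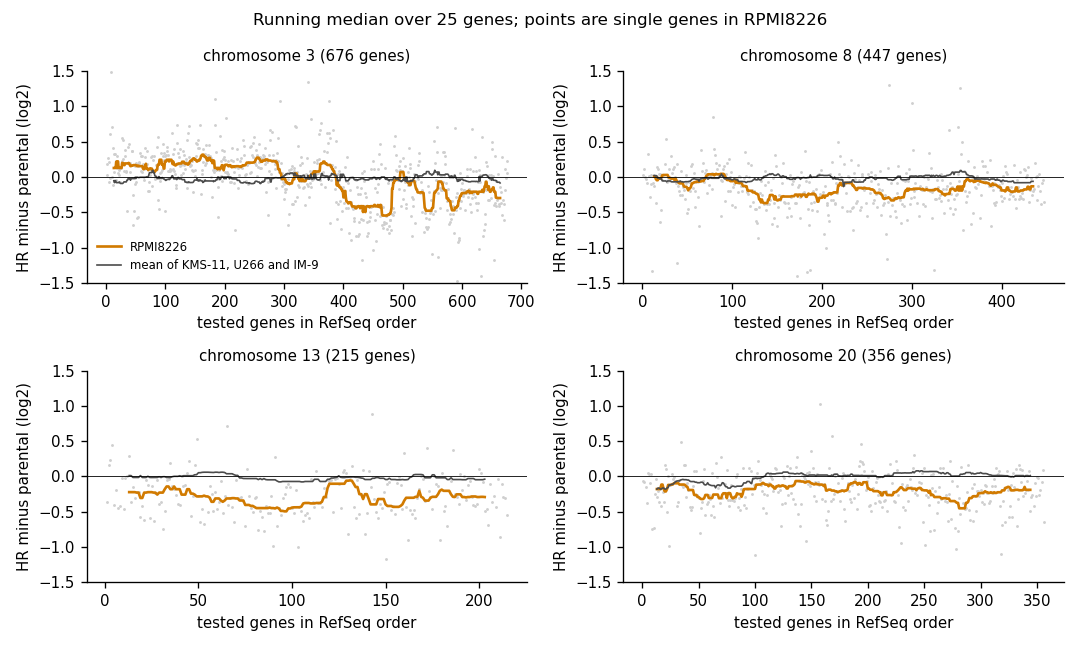
Grey points are single tested genes of RPMI8226 in their RefSeq order along chromosomes 3, 8, 13 and 20, with the RPMI8226-HR minus parental difference in log2 units; 15 genes beyond ±1.5 fall outside the frame. The orange line is the running median over 25 genes in RPMI8226 and the dark line that of the mean of the other 3 lines. The dark line stays near 0 on chromosomes 3 and 13. The orange line lies mostly above it on the first 300 genes of chromosome 3, except at their end, and mostly below it from IQCB1 on. At PSMF1, near the start of chromosome 20, both lines are at −0.18, and at ZC2HC1A on chromosome 8 the dark line is at −0.14.

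The 4 chromosomes 3, 8, 13 and 20 held 201 of the rises and 609 of the falls. On all other chromosomes 1153 of 10945 genes rose (10.5%) and 1325 fell (12.1%). The HIF and cholesterol rises were mostly elsewhere: 25 of 34 HIF targets and 16 of 17 cholesterol genes outside these chromosomes rose. Mitosis genes fell in 20 of 39 cases outside them, and endoplasmic reticulum genes in 8 of 30. Whether the genes of these chromosomes named above, such as RB1, MCM2, TFRC, CTSB and LAMP1, changed apart from their neighbours was not tested.

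The difference between lines was counted for the larger changes as well. These genes were chosen for a large RPMI8226 difference, which is also part of the difference tested, so the choice itself raises the shares and they are given as a description. Of the 114 genes that rose at least 2-fold in RPMI8226, 105 also stood above the mean difference of KMS-11, U266 and IM-9, and of the 137 that fell at least 2-fold all 137 stood below it. Over all genes 1592 were higher and 1789 lower than that mean. A further count, of genes called in RPMI8226 and in none of the other 3 lines, gave 518 rises and 833 falls, but a missing call in another line is not a test. The 9 of 114 that did not stand above the mean included AK4 (−0.05) and BNIP3 (−0.11), which rose in the other lines as well.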

How the data were processed

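RNA of 16 arrays, 2 per line and oxygen condition, was grouped by the labels, and the 4 RPMI8226 arrays give the comparison. The deposited table holds log2 intensities that the authors had already summarised per probe set. Per the submitters' processing notes Affymetrix Expression Console 1.3.0 was used; the background correction and normalization are not given in the sources used here. Although the design text speaks of a Human Gene 2.0 ST chip, every probe set listed in the annotation of the 1.0 ST chip was found in the table, and genes were named from that annotation. Of 33297 probe sets 19460 had 1 symbol, 1754 several and 12083 were not listed; several probe sets of a gene (768 genes) were reduced to the brightest. RefSeq (GRCh38.p14) gave current symbols, gene order and promoters.

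All 16 arrays were fitted as 8 groups in limma 3.58.1 (R 4.3.3, lmFit and eBayes), and the RPMI8226 contrast and its difference from the mean of the other 3 lines were tested over 12639 genes, with Benjamini-Hochberg adjustment. Simulated data were used to check the fit. Errors are standard errors of that fit. The number of arrays limits the precision. Members and gene lists were chosen with earlier results of these data known. Named are the 18 largest changes each way with separated arrays, up to 6 called members per list with the largest differences and its defining members, the 10 smallest p-values each way between lines, genes crossing the table median, the ends of extreme runs of 25 genes and up to 3 promoters per motif; other members named as not passing, and genes so marked, were picked after seeing their values. Alternatives were re-normalization, filters, array weights, a replicate block and leaving out each array. The arrays numbered alike correlated at r = 0.205 in their deviations from the group means, with 2 pairs only, and nothing in the labels says that the numbers pair them.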

Additional observations from a re-analysis of the deposited data

Results flagged for a closer look

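The HR difference of RPMI8226 was tested against the mean difference of KMS-11, U266 and IM-9 in the same fit, and 1592 genes stood higher and 1789 lower (limma, Benjamini-Hochberg adjusted p under 0.05). The 10 smallest p-values upward belonged to PAGE1, which was 4.72 above that mean on the log2 scale, GATM (3.98), CAPN6, of the calpain family (3.43), HMGCS1 (3.40), CD48 (3.37), PTPN22 (3.02), IL2RG (3.02), ELAPOR2 (2.19), ITGA4 (1.90) and INSIG1 (1.75). Downward they belonged to LINC00052 (−4.35), SNORD113-4 (−3.98), TSPAN7 (−3.80), CR2 (−3.02), CYP24A1 (−2.83), KDELR3 (−2.80), ERRFI1 (−2.47), CLU (−2.34), CRIP2 (−2.27) and LAPTM5 (−1.93). CLU, the secreted chaperone clusterin, was at 6.68 and 6.98 in RPMI8226-HR and 8.53 and 8.59 in parental cells. LAPTM5, a lysosomal membrane protein of blood cells, averaged 11.05 in RPMI8226-HR and 12.10 in parental cells, a difference of −1.05 ± 0.06 (SE, 2 arrays each).

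Probe sets that the gene table leaves out also carried calls. Of 1283 tested probe sets that name several genes, 236 rose and 132 fell, 368 in all (28.7%). Of 5274 that the platform table does not list, 144 rose and 113 fell, 257 in all (4.87%). They have no single gene name here and enter no count above.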

How the results depend on the processing

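The counts of risen and fallen genes kept within 1.5 times of the reported values under every alternative run. Leaving out 1 array at a time gave 1001 to 1075 rises and 1375 to 1647 falls, 114 to 133 rises and 135 to 136 falls of at least 2-fold, and 1239 to 1355 genes higher and 1360 to 1581 lower than in the other lines. The lone array of a group was then assumed to vary like the other groups. Array weights gave 928 rises and only the arrays of this line 1316 falls, the lowest of all settings, and an intensity trend with a robust prior gave 1440 and 2119, the highest. Without parental array 2, 2193 of the 3288 calls were kept. HIF1A, which passed in no setting, lay between −0.1088 and 0.1266 with 1 array left out, and it turned sign with arrays centred on their median (−0.0107), without parental array 1 (−0.11) and without RPMI8226-HR array 2 (−0.07). Of the 314 named genes past the threshold, 244 passed under every setting that gave a value. With the replicate number as a block, which the data do not show to pair the arrays, 1348 genes rose and 1941 fell. Leaving out the genes of chromosomes 3, 8, 13 and 20, an alternative chosen after seeing the data, left 1153 rises and 1325 falls. Of the tested genes 1250 were under the table median on all 4 arrays, and the 202 of these that were called have the least certain folds.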

Other observations

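Genes of signalling by chemokines and pathogen sensors also changed; all genes and groups in this section were chosen after their values were seen, and none has a test of its own as a group. The chemokine genes went both ways. CXCL9 was at 6.47 and 7.03 in RPMI8226-HR and 8.01 and 8.87 in parental cells, whereas CXCL10, which lies beside it and binds the same receptor, averaged 9.12 in RPMI8226-HR and 7.79 in parental cells. CXCL16 (−1.17) and CCL2 (−1.15) fell and CCL1 rose by 1.46. The RNA sensors TLR7 and TLR3 rose by 1.70 and 1.05, and both were under the table median in parental cells. Single genes known from mesenchymal cells were higher, while 0 of the 8 tested stromal markers rose. VIM, vimentin, was at 10.96 and 11.16 in RPMI8226-HR and 8.88 and 9.26 in parental cells, and SNAI2 was at 9.27 and 9.82 in RPMI8226-HR and 7.85 and 7.41 in parental cells. SOX2, a factor of stem cells, fell (−1.48).

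Small nucleolar RNAs, which guide the modification of ribosomal RNA, rose in many cases. Of 128 tested, 58 rose (45.3%, against 10.7% of all genes) and 4 fell (3.12%, against 15.3%), with a median of 0.30. The mean difference of the other 3 lines had a median near 0 (−0.0044). Of 7 that lie in introns of GAS5, 6 rose, with a median of 0.66. The falls included SNORD113-4 and SNORD114-3. Protein-coding genes had 1230 rises and 1907 falls among 11945. Zinc finger genes named ZNF on chromosome 19 fell in 44 of 196 cases and rose in 2, and those of other chromosomes fell in 20 of 202 and rose in 17. The medians were −0.13 and 0.01.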
